A study of Mus musculus with 12 samples.

Results

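The marrow of mice lacking Fancg was compared with the marrow of mice lacking Fancc, 3 mice against 3, to ask which marrow programs differ between the single knockouts. These are 6 of the 12 arrays of the study, which also holds 3 wild-type C57Bl/6 mice and 3 mice lacking both genes. By their labels, the Fancg-/- group is nullizygous for Fancg and the Fancc-/- group for Fancc. Signals of Fancg-/- replicates 1 and 3, given below, go against that label. No treatment of any group and no age or sex of the mice is given in the labels, and a background strain is named for the wild-type mice only. The cells were flushed from tibia and femur and were neither sorted nor cultured, so each array reads all marrow lineages together. Every mouse is described as giving 1 RNA and 1 array, without pooling. The RNA input was 2 µg, except for Fancg-/- replicate 3, with 0.91 µg. Members were the autosomal genes whose probe sets carry a single gene symbol, each read on its probe set with the highest mean over the 12 arrays. There were 17401 such genes, and 11523 of them were bright enough to test. All values are log2 signals, so a difference of 1 is a doubling.

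Fancc and Fancg proteins belong to the Fanconi anemia core complex, which adds ubiquitin to the Fancd2 and Fanci pair so that DNA crosslinks can be repaired. People who inherit defects in this pathway develop marrow failure, in which blood stem cells and the lineages made from them are lost. Because both proteins act in the same complex, the single knockouts remove different parts of 1 machine.

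Only 8 genes passed the test between the knockouts (limma's moderated test, Benjamini-Hochberg adjusted p below 0.05). Of the 11523 genes, 2 rose in Fancg-/- marrow relative to Fancc-/- marrow (0.0174%) and 6 fell (0.0521%), 0.0694% in all. All 8 adjusted p values lay between 0.0484 and 0.0498, just inside the threshold, and 30 genes lay below 0.1. At an unadjusted p below 0.05 there were 589 genes higher (5.11%) and 445 lower (3.86%), 1034 in all (8.97%), where 5% of the genes would be 576.1. A difference of 2-fold or more was reached by 35 genes upward and 28 downward. The median over all genes was 0.02, with 54.0% above 0. The 3 Fancg-/- arrays all lay above the 3 Fancc-/- arrays for 817 genes (7.09%) and all below for 713 genes (6.19%). These shares are the background for every list below. With Fancc-/- replicate 3 left out, 13.3% of all genes were apart above and 13.0% below, and with Fancg-/- replicate 3 left out 10.7% and 11.6%, since fewer arrays overlap less often.

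Several arrays stood apart. Fancc-/- replicate 3 correlated with the other 5 arrays at 0.954 to 0.967 over the tested genes, while the Fancg-/- arrays correlated with each other at 0.985 to 0.992. Without it, 5 genes rose (0.0434%) and 43 fell (0.373%), and all 8 original genes were among them. Fancg signal in the Fancg-/- mice was 6.55, 6.00 and 6.64 on one probe set, against 6.72, 6.55 and 6.43 in the Fancc-/- mice. On the other it was 6.43, 5.92 and 6.67, against 6.76, 6.68 and 6.78, so all Fancg-/- mice were lower there. That difference did not pass the test (limma, adjusted p = 0.666 over all probe sets with 1 symbol). The double knockouts read 5.61, 5.83 and 5.78 on the first probe set and 5.67, 5.41 and 5.54 on the second, against wild-type means of 6.84 and 6.87, so both probe sets were low in the mice labelled as lacking both genes. The library labelled Fancg-/- replicate 2 lay nearer to the double knockouts on both, and the libraries labelled Fancg-/- replicates 1 and 3 lay nearer to the mice with intact Fancg, which goes against their label. In everything that follows, Fancg-/- is the label of a library. With replicate 2 as the only Fancg-/- mouse, none of the 8 genes passed (limma, adjusted p of 0.981 or more), and their differences were 0.68 and 0.72 for those that rose and -1.60 to -0.76 for those that fell. Fancc signal gave no such mark of its loss. On 1 of its 3 probe sets the Fancc-/- mean was lower than the Fancg-/- mean, at 6.06 against 6.09, and on the probe set with the widest gap it was higher, at 5.75, 5.69 and 5.87 against 5.33, 5.49 and 5.56. Whether these probe sets lie in the deleted parts is not given in the sources used here. Y-linked Eif2s3y read 7.64, 9.09 and 5.78 in the Fancg-/- mice and 2.94, 3.18 and 3.30 in the Fancc-/- mice. Xist, the RNA of the inactive X, read 11.31, 7.34 and 10.75 against 12.13, 11.76 and 11.19. The same libraries labelled Fancg-/- replicates 1 and 3 thus carried both marks, and the sex marks moved with the groups. No gene passed limma's test with Eif2s3y or Xist as a covariate (629 and 869 genes at an unadjusted p below 0.05). Within groups, Eif2s3y varied mainly among the Fancg-/- mice (SD 1.66, against 0.15 to 0.30 in the other groups). Xist did too (2.15, against 0.47 to 0.73). These fits thus lean on how the Fancg-/- libraries differ from each other, and cannot tell the sex marks from the groups. The calls also depended on the other arrays: no gene passed when any 1 Fancg-/- replicate or Fancc-/- replicate 1 was left out (730 to 1144 genes at an unadjusted p below 0.05). Without Fancc-/- replicate 2, 8 rose and 9 fell.

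Markers of the main marrow lineages were present. Neutrophil granule genes Ngp, Ltf, Camp, S100a8 and S100a9 were among the brightest, at 13.33 to 14.49 over the 6 arrays. Red cell Slc4a1, the band 3 anion exchanger, lay at 12.06 to 12.43, while B-cell Ms4a1 (CD20) ranged from 6.44 to 9.40. Skeletal muscle Ckm stayed at 4.73 to 5.17. Of all tested members of the 32 gene lists described here, Slc25a39 and Rgs2 were the only ones past the test, and the others are given as values.

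Slc25a39, a mitochondrial carrier that brings glutathione into the organelle, had the smallest p of all genes. Its promoter is printed with those of Mt2, the metallothionein gene with the widest gap among the genes named as lower, and of its neighbour Mt1. Each is the 250 bases before the RefSeq start, on GRCm38.p6, written 5′ to 3′ along the gene. Slc25a39 lies on the minus strand of chromosome 11 (chr11:102407518-102407767), and capitals mark the erythroid CACCC motif CCACNCC on either strand. Mt2 (chr8:94172368-94172617) and Mt1 (chr8:94178839-94179088) lie on the plus strand as neighbours, and capitals mark the metal response core, TGCACNC or TGCGCNC on either strand.
Slc25a39: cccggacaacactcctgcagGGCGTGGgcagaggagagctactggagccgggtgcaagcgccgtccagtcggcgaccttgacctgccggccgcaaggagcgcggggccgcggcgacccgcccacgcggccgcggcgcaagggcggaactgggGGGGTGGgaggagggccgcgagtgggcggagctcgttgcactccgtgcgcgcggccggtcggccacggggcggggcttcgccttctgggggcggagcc
Mt2: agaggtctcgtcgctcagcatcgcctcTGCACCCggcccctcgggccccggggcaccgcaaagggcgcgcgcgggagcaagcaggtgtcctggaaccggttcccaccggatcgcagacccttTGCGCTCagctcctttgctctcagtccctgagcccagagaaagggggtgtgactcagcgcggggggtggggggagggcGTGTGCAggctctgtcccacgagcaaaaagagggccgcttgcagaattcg
Mt1: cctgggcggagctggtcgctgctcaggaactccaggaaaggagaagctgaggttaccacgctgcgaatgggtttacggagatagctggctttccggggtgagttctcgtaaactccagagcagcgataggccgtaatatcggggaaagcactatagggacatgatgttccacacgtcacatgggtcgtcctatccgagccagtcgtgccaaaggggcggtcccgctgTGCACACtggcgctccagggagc
The Slc25a39 window held 2 CACCC matches, a motif found in 29.2% of 32851 such windows. It held none of the GATA motifs searched on both strands (the letters AGATAA, the letters AGATAG, the letters TGATAA and the letters TGATAG), which 26.5% of windows hold. The Mt2 window held 3 metal response cores and the Mt1 window 1. Windows with 1 or more made up 21.4% and windows with 3 or more 1.26%, and the Slc25a39 window held 3 as well (not in capitals). No metal response match in these windows overlapped a CACCC match. The windows of other genes past the test, described below, were searched as well, except that of Armc8. Tent5c, which fell, and Rgs2, which rose, each held 1 CACCC match and no GATA match. Mkrn1 and Cst3 held neither. Mllt3 held 1 GATA match and Ube2h 1 of each motif, in both cases at 1 of 2 starts. A match describes the letters and is not a measured binding site. Whether the letters bear on the differences was not tested.

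Slc25a39 signal was 12.05, 12.10 and 12.12 in the Fancg-/- mice and 12.76, 12.81 and 13.01 in the Fancc-/- mice. The groups did not overlap, and wild-type mice lay lowest, with a mean of 11.90. It fell by 0.77 (SE 0.10, adjusted p = 0.0484), 1.71-fold lower in Fancg-/- marrow. The other probe sets of the gene were lower too, by -0.28 to -0.83 on the log2 scale.

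Mkrn1, a RING-type ubiquitin ligase, read 11.44, 11.31 and 11.46 in Fancg-/- marrow and 12.28, 12.08 and 12.60 in Fancc-/- marrow. The groups were well separated. The gene fell by 0.92 (SE 0.14, adjusted p = 0.0498), and each of its other probe sets was lower in every Fancg-/- mouse. Tent5c, a poly(A) polymerase that lengthens messenger RNA tails, read 11.38, 11.45 and 11.38 against 12.25, 12.45 and 12.07. Every Fancg-/- mouse lay below every Fancc-/- mouse. Tent5c fell by 0.85 (SE 0.13, adjusted p = 0.0498), and its other probe set gave -0.77.

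Ube2h, a ubiquitin-conjugating enzyme that is abundant in maturing red cells, read 9.71, 9.62 and 9.69 against 10.29, 10.43 and 10.46. It fell by 0.72 (SE 0.11, adjusted p = 0.0498), although its other probe sets, at -0.10 to -0.30, overlapped between the groups. Mllt3, a reader of acylated histones known as a fusion partner of MLL in leukemia, read 6.48, 5.95 and 6.23 against 7.50, 7.27 and 7.75. The groups were apart, and the gene fell by 1.28 (SE 0.20, adjusted p = 0.0498). Its other probe sets, at -0.18 and -0.59, overlapped between the groups. Armc8, a subunit of the CTLH ubiquitin ligase, read 9.29, 9.41 and 9.56 against 10.94, 10.64 and 11.44 on the probe set used. It fell by 1.59 (SE 0.24, adjusted p = 0.0498), 3.01-fold, the largest difference among the 8. This rested on that probe set alone: the other probe sets of Armc8 gave -0.12 to 0.11, and the groups overlapped on each.

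Cst3 and Rgs2 rose. Cst3 encodes cystatin C, a secreted inhibitor of cysteine proteases made strongly by myeloid cells. It read 11.72, 11.62 and 11.65 in Fancg-/- marrow, next to the wild-type mean of 11.75, and 10.66, 11.11 and 10.93 in Fancc-/- marrow. The difference was 0.76 (SE 0.12, adjusted p = 0.0498), or 1.69-fold. Rgs2, which shuts off G-protein signalling and is induced rapidly by many stimuli, read 11.58, 11.74 and 11.65 against 10.98, 11.11 and 11.09. No array of either group crossed into the other. Rgs2 rose by 0.60 (SE 0.09, adjusted p = 0.0498), and its other probe sets gave 0.45 to 0.71. In all 8 genes the Fancg-/- mean lay between the wild-type and the Fancc-/- mean, as a description of these levels.

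**Figure D1:**
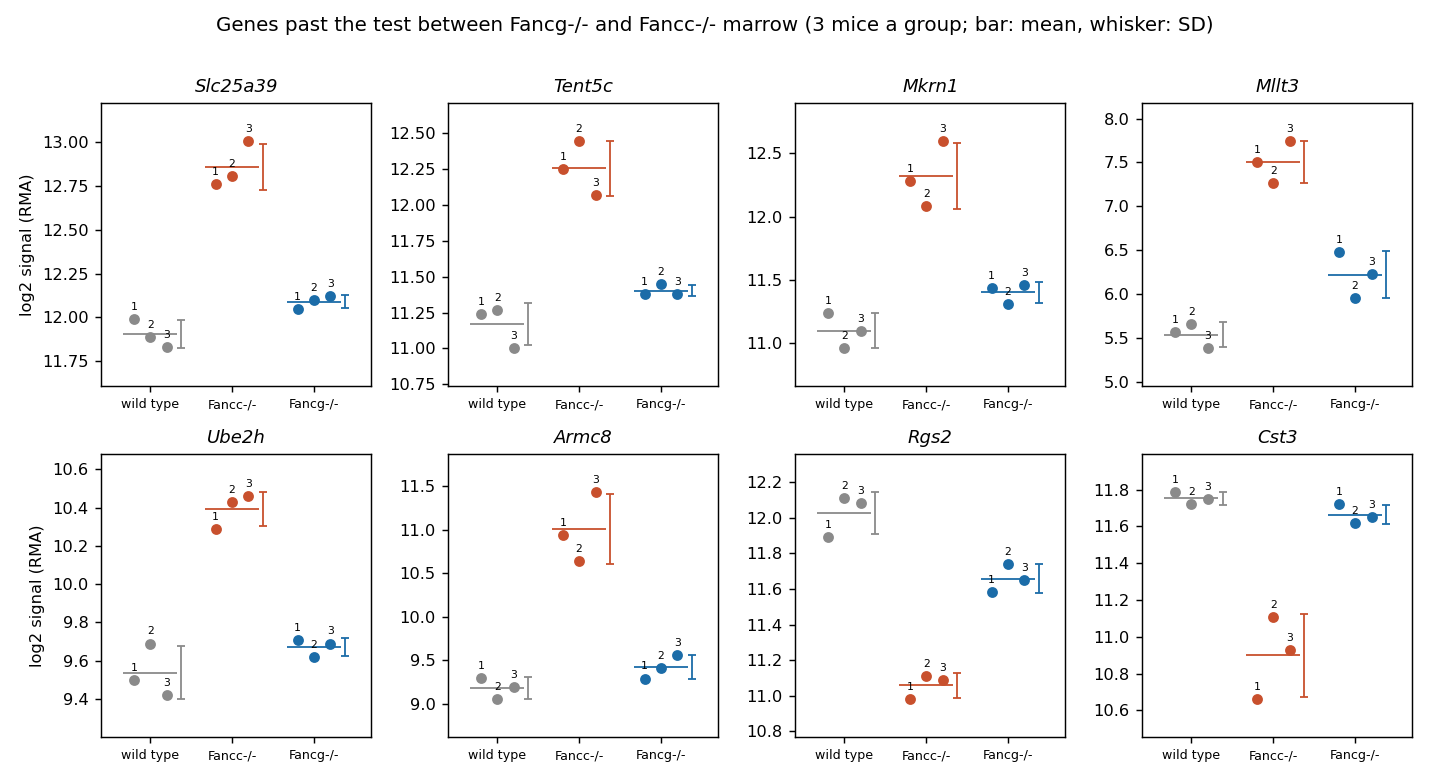
Log2 signal of the 8 genes past the test in each wild-type, Fancc-/- and Fancg-/- mouse (y axes differ between panels and do not start at 0). Points are mice with their replicate number, bars are means and whiskers SD of 3 mice. Slc25a39 sat at 12.05 to 12.12 in the Fancg-/- mice and at 12.76 to 13.01 in the Fancc-/- mice, and no gene shown overlapped between the knockouts.

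The next genes by p, taken from those whose groups were apart, did not pass the test. They included Mt2, with the largest difference of the genes named as lower. Mt2 read 9.27, 9.38 and 9.37 in Fancg-/- marrow and 11.44, 10.24 and 11.57 in Fancc-/- marrow, against a wild-type mean of 8.27. The Fancg-/- mice were nearly level, while Fancc-/- replicate 2 lay well below the other Fancc-/- mice. The difference was -1.74 (SE 0.28, adjusted p = 0.0620), and it passed without Fancc-/- replicate 3, at -1.50 (adjusted p = 0.0489). Mt1 read 9.71, 10.10 and 9.89 against 10.99, 10.21 and 11.51, 2.01-fold lower in the mean (adjusted p = 0.298). Both metallothioneins, small proteins that bind zinc and copper, thus lay lower in every Fancg-/- mouse. Over the 9 tested genes of the metallothionein and zinc list, the median was -0.09. Mt1 and Mt2 were the only 2 whose groups did not overlap, 22.2% of the list against 6.19% of all genes.

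The remaining genes by the same rule are given as values. On the lower side these were Ube2o, a ubiquitin ligase that clears proteins from reticulocytes (-1.08), Cdr2 (-0.97), Ccndbp1 (-0.67), Rnf10 (-0.61) and Gabarapl2, an Atg8 family member of autophagy (-0.50). Their adjusted p values ran from 0.0648 to 0.0968. On the higher side were the chemokine receptor Ccr6 (1.30), Gngt2, a G-protein gamma subunit (1.08), thrombomodulin Thbd (1.04), Tcn2, the vitamin B12 carrier transcobalamin (0.81), and the lysosomal protease Ctsz (0.79). Gadd45b (0.75), Commd1 (0.75), Dock2, which drives leukocyte migration (0.74), Pold4 (0.68) and B4galnt1 (0.54) followed. For these 10 genes adjusted p ran from 0.0968 to 0.198. Genes of both sides were taken only from those whose groups were apart, so that separation is no finding. Of the other probe sets of Tcn2, at -0.10 to 0.61, only that at 0.61 was apart. The other probe sets of Commd1, Dock2, B4galnt1 and Gabarapl2 overlapped. Rnf10 gave -0.15 and 0.07 on its others. Without Fancc-/- replicate 3, Ctsz (0.91, adjusted p = 0.0324), Gngt2 (0.79, 0.0324), Ube2o (-1.25, 0.0126), Rnf10 (-0.68, 0.0345) and Gabarapl2 (-0.50, 0.0450) passed.

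Red cell genes were lower as a list in Fancg-/- marrow. All 24 tested genes of red cell membrane, globin and erythroid function had a difference below 0, with a median of -0.33 against 0.02 over all genes. Of the 24, 12 lay lower in every Fancg-/- mouse, against 6.19% of all genes. An unadjusted p below 0.05 was reached by 10, all lower, against 3.86% of all genes. Bpgm, which makes the 2,3-bisphosphoglycerate that loosens oxygen from hemoglobin, read 10.91, 10.81 and 11.01 in Fancg-/- marrow and 11.56, 11.84 and 11.75 in Fancc-/- marrow. The groups were far apart relative to their spread, with a difference of -0.80 (SE 0.15, adjusted p = 0.0985). Car1, an erythroid carbonic anhydrase, read 10.84, 10.76 and 11.08 against 12.35, 11.24 and 12.17, a difference of -1.03 (adjusted p = 0.319). Rhag, an ammonium channel of the Rh complex, read 10.18, 10.13 and 9.89 against 11.19, 10.45 and 10.69, a difference of -0.71 (adjusted p = 0.494). The complement shield Cd59a (-1.23), the blood group carrier Ermap (-0.62), Tspan33 (-0.62) and the adducin Add2 (-0.55) were also apart. The other probe sets of Add2, at -0.07 to -0.35, overlapped. In bulk marrow, fewer cells of a type and less RNA per cell cannot be told apart.

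Both knockouts lay above wild type for these genes, and Fancc-/- marrow lay higher. The median of the 24 genes relative to the wild-type mean was 0.69, 0.72 and 0.56 in the Fancg-/- mice and 1.23, 1.13 and 0.77 in the Fancc-/- mice. Fancc-/- replicate 3 was thus the nearest of its group to the Fancg-/- mice. Without it the median difference was -0.55 and 22 of the 24 genes were apart, against 13.0% of all genes. With Fancg-/- replicate 2 as the only Fancg-/- mouse the median was -0.32.

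The erythroid transcription factors and the Epo receptor followed the same order less evenly. Their median was -0.25 over 13 genes, 11 of them below 0. Groups were apart for 3 (23.1%), against 6.19% of all genes. The median was -0.51 without Fancc-/- replicate 3, with 10 of 13 apart against 13.0% of all genes, and -0.12 without Fancc-/- replicate 1. Gfi1b, a repressor required for red cell and platelet precursors, read 8.49, 8.56 and 8.56 against 9.61, 9.70 and 8.97. It lay below in every Fancg-/- mouse, by -0.89 (SE 0.20, adjusted p = 0.209). Without Fancc-/- replicate 3 Gfi1b passed, at -1.12 (adjusted p = 0.0220). E2f2 (-0.41) and Zfpm1, the FOG1 cofactor of GATA1 (-0.43), were the others apart. Klf1, the master activator of adult globin genes, read 10.02, 10.39 and 10.30 against 10.87, 10.70 and 9.87, and overlapped because Fancc-/- replicate 3 was the lowest of all 6. Epor (-0.35) and Tal1 (-0.50) also overlapped. For Nfe2 the difference was 0.01.

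Of the 21 heme and iron genes, Slc25a39 fell and no other passed. Their median was -0.22, with 18 below 0 and 6 (28.6%) apart, against 6.19% of all genes. Ferrochelatase, Fech, which inserts iron into heme, read 11.75, 11.76 and 11.63 in Fancg-/- marrow and 12.10, 12.33 and 12.72 in Fancc-/- marrow. All Fancg-/- mice were lower, and the difference was -0.67 (SE 0.17, adjusted p = 0.282). Cpox, an earlier enzyme of the same route, read 9.62, 9.65 and 9.47 against 10.51, 10.41 and 9.78 (-0.65, adjusted p = 0.493). The iron-sulfur assembly factor Glrx5 (-0.34), the transferrin receptor Tfr2 (-0.47) and the mitochondrial transporter Abcb10 (-1.09) were apart as well. Abcb10 was so only by a very narrow margin, at 8.53, 7.94 and 9.36 against 9.85, 9.88 and 9.37 (SE 0.52, limma, adjusted p = 0.569). The list median was -0.41 without Fancc-/- replicate 3, with 14 of 21 apart below and 1 above, against 13.0% and 13.3% of all genes. Ferritin heavy chain Fth1 (-0.13), the transferrin receptor Tfrc (-0.17) and the iron exporter Slc40a1 (-0.20) overlapped.

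**Figure D2:**
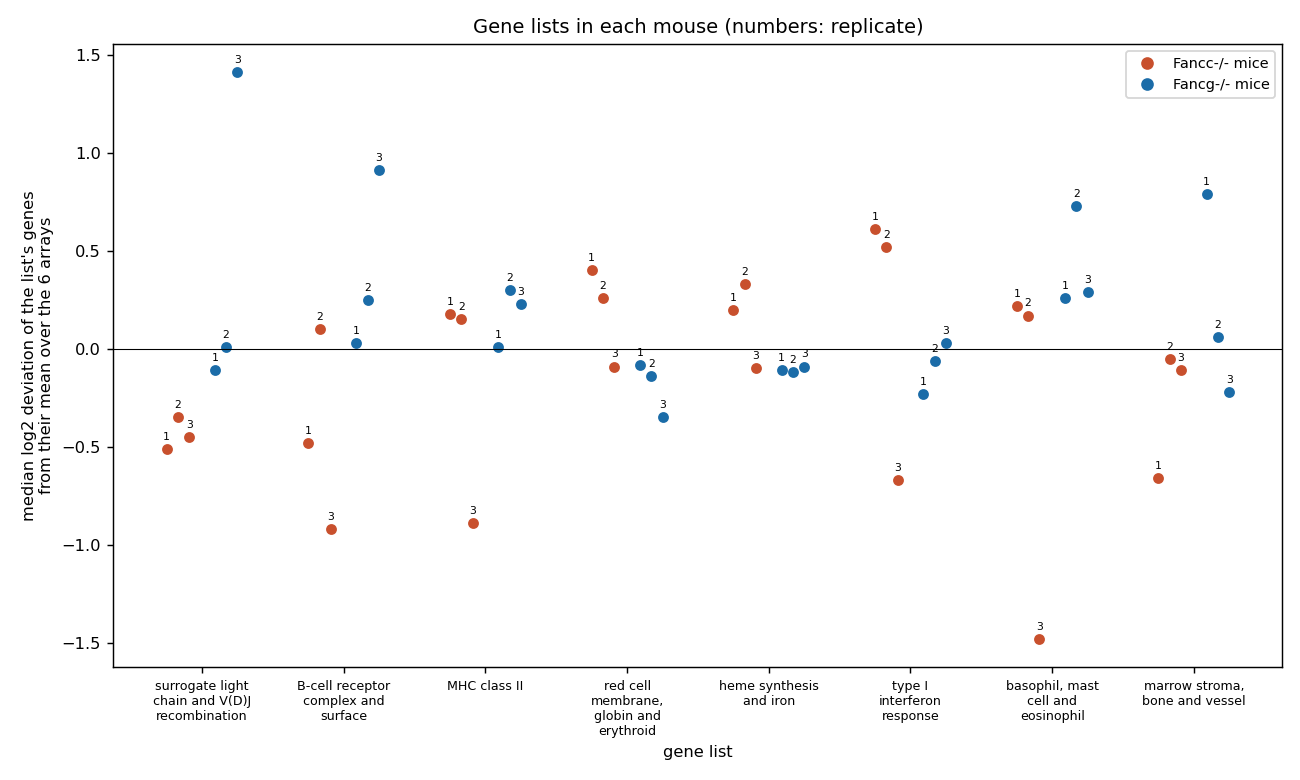
Median log2 deviation of the genes of 8 lists from their mean over the 6 arrays, for each Fancc-/- and Fancg-/- mouse (points, with the replicate number). Surrogate light chain and V(D)J genes stood at 1.41 in Fancg-/- replicate 3, and Fancc-/- replicate 3 was the lowest array for the MHC class II, interferon and basophil lists, at -0.89, -0.67 and -1.48.

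Early B-cell and B-cell surface genes lay higher as lists in Fancg-/- marrow. Early B-cell development needs the surrogate light chain (Vpreb1 with Igll1) and the recombinase that cuts antibody genes (Rag1 and Rag2). The 11 tested genes of this list had a median difference of 0.94, and 6 of them (54.5%) were higher in every Fancg-/- mouse, against 7.09% of all genes. At an unadjusted p below 0.05 there were 5, all higher, against 5.11% of all genes. Vpreb1 read 5.07, 5.88 and 8.92 in Fancg-/- marrow, 4.16, 4.16 and 4.31 in Fancc-/- marrow and 8.99, 9.30 and 8.27 in wild-type marrow. Fancg-/- replicate 3 was near wild type, and the other Fancg-/- mice were near the Fancc-/- mice. The difference was 2.41 (SE 0.75, adjusted p = 0.381). Rag1 showed the same order, at 3.60, 3.77 and 6.53 against 3.52, 3.47 and 3.32 (1.19, SE 0.60, adjusted p = 0.590). Igll1 read 6.22, 6.48 and 8.55 against 6.08, 6.10 and 6.14, and Dntt, which adds bases at antibody gene joints, 6.35, 5.96 and 7.56 against 5.70, 5.80 and 5.54. In each, the highest array by far was Fancg-/- replicate 3, the library with less RNA input. Without it the list median was 0.27, with 6 of 11 still apart against 10.7% of all genes. With Fancg-/- replicate 2 as the only Fancg-/- mouse it was 0.33. Array medians were 4.79 to 4.87. Rag1 was thus dim in every knockout mouse compared except Fancg-/- replicate 3, and Vpreb1 was dim in the Fancc-/- mice. Genes apart without that replicate include gaps as small as that of Rag1, at 3.60 and 3.77 against 3.52, 3.47 and 3.32. Cd24a (-0.08) and Rag2 (0.04) overlapped.

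The 17 tested genes of the B-cell receptor and the mature B-cell surface all had a difference above 0, with a median of 0.83, and 6 (35.3%) were apart, against 7.09% of all genes. At an unadjusted p below 0.05 there were 10, all higher, against 5.11% of all genes. Cd37, a tetraspanin of mature B cells, read 10.42, 10.46 and 10.72 against 9.87, 10.22 and 10.02, the smallest p of the list (0.50, SE 0.11, adjusted p = 0.209). Cd79a, the signalling chain of the receptor, read 8.36, 8.75 and 9.48 against 7.56, 8.28 and 7.73. Its groups were apart by a narrow margin, and the difference was 1.01 (SE 0.28, adjusted p = 0.335). Ms4a1 read 8.40, 8.96 and 9.40 against 7.47, 8.27 and 6.44 (1.53, SE 0.46, adjusted p = 0.359). The complement receptor Cr2 (0.97), the IgE receptor Fcer2a (1.33) and Cd55 (0.94) were the others apart. Cr2 and Fcer2a were dim in the Fancc-/- mice, at 3.80 to 4.15 and 4.34 to 4.66, below the array medians of 4.79 to 4.87. The list median was 0.61 without Fancg-/- replicate 3 and 0.47 without Fancc-/- replicate 3, with 6 of 17 apart in both, against 10.7% and 13.3% of all genes. With Fancg-/- replicate 2 as the only Fancg-/- mouse it was 0.61. Relative to the wild-type mean the list lay at -1.63, -1.18 and -0.59 in the Fancg-/- mice and at -2.08, -1.30 and -2.20 in the Fancc-/- mice, so all 6 mice were below wild type.

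Of the 13 B-lineage transcription factors, 10 lay above 0, with a median of 0.38, and 1 (7.69%) was apart, near the 7.09% of all genes. The median was 0.17 without Fancc-/- replicate 3. The gene apart was Ebf1, which commits progenitors to the B lineage, at 4.61, 4.81 and 6.09 against 3.74, 4.52 and 4.44 (0.93, SE 0.40, adjusted p = 0.535). Ebf1 was dim, near or below the array medians of 4.79 to 4.87, in every knockout mouse compared except Fancg-/- replicate 3. Bach2 (0.95), Spib (1.01) and Sox4 (0.96) overlapped. Pax5, the guardian of B-cell identity, was dim and level, at 4.72, 4.83 and 4.78 against 4.76, 4.73 and 4.87.

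**Figure D3:**
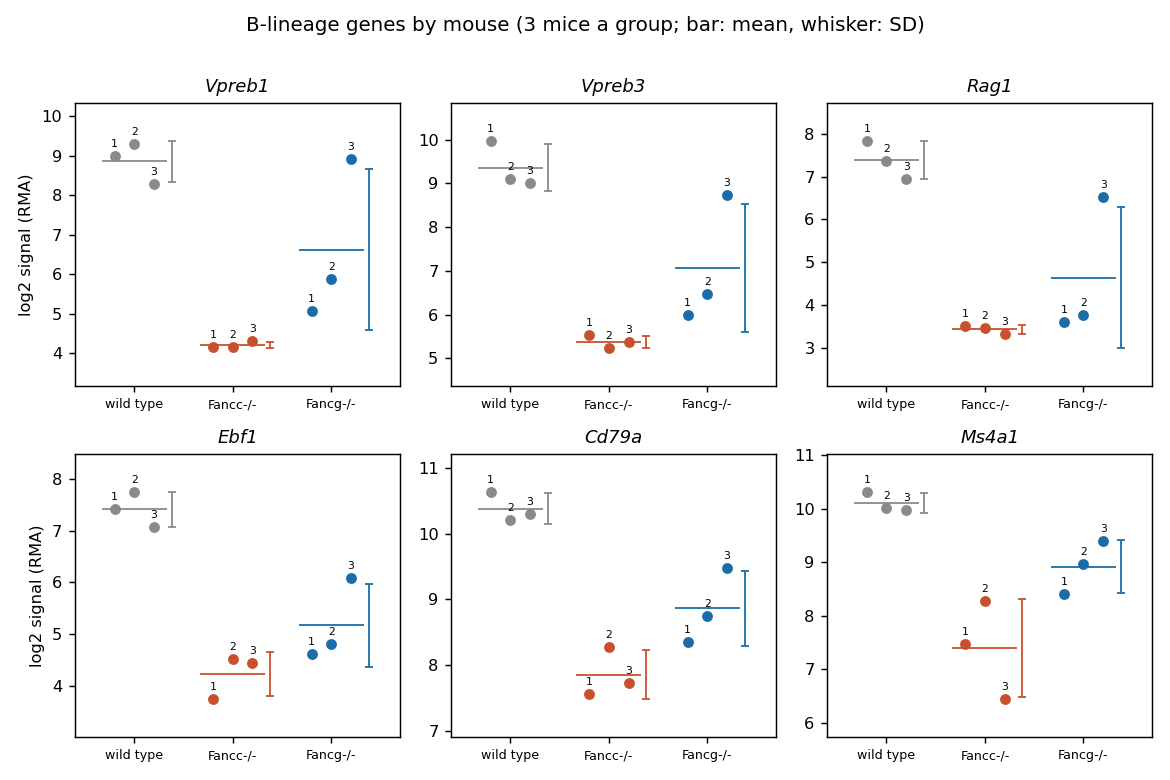
Log2 signal of 6 B-lineage genes in each mouse (points with replicate number, bars for means, whiskers for SD of 3 mice, y axes not starting at 0). Vpreb1 and Rag1 were close to wild type in Fancg-/- replicate 3 only, at 8.92 and 6.53, while Cd79a and Ms4a1 lay between the Fancc-/- and wild-type mice in all 3 Fancg-/- mice.

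The plasma cell and immunoglobulin list had a median of -0.16 over 11 genes. It had 3 (27.3%) apart, all lower, against 6.19% of all genes. The median turned with single arrays: it was 0.03, 0.02 and 0.01 without Fancc-/- replicate 1, Fancc-/- replicate 2 and Fancg-/- replicate 1, and -0.59 without Fancc-/- replicate 3, with 6 of 11 apart against 13.0% of all genes. Ighm, the IgM heavy chain, read 13.84, 14.04 and 13.68 in Fancg-/- marrow and 14.44, 14.32 and 14.31 in Fancc-/- marrow. The groups were apart by -0.50 (SE 0.10, adjusted p = 0.0985). Of the other Ighm probe sets, only that at -0.95 was apart, and the rest, at -0.65 to 0.50, overlapped. Igk, the kappa light chain, read 9.66, 10.27 and 9.59 against 12.68, 10.50 and 10.92, with Fancc-/- replicate 1 far above the rest (-1.53, SE 0.50, adjusted p = 0.402). Of the other Igk probe sets, that at -1.26 was apart, and those at 0.04 and -0.04 overlapped. Prdm1, which encodes the plasma cell regulator Blimp-1, read 4.83, 4.80 and 4.56 against 5.14, 5.49 and 5.04 (-0.50, adjusted p = 0.336). Xbp1 (-0.07), Jchain (0.12) and Irf4 (0.12) overlapped. Immunoglobulin probe sets can read several related genes, so Ighm and Igk values are uncertain in origin.

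MHC class II genes, which present peptides to helper T cells, had a median of 0.32 over 10 genes with 2 apart. H2-DMb2, which loads peptides, read 8.86, 9.02 and 9.17 against 7.97, 8.79 and 7.70 (0.86, SE 0.23, adjusted p = 0.329), and H2-DMa gave 0.77. H2-Aa read 11.28, 11.64 and 11.54 against 11.58, 11.44 and 10.42, so Fancc-/- replicate 3 alone was low. Without that array the list median was -0.02.

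For the interferon list, the presence of calls depended on 1 array. Type I interferons switch on antiviral genes such as Ifit1 and Rsad2 in the cells that sense them. Over all 6 arrays, 0 of the 26 tested genes passed and 0 were apart. An unadjusted p below 0.05 was reached by 2, both lower, against 3.86% of all genes. The median was -0.17, or -0.01 without Fancc-/- replicate 1 and -0.05 without Fancc-/- replicate 2. Ifit1 read 4.46, 4.47 and 4.78 in Fancg-/- marrow, 6.59, 6.99 and 4.74 in Fancc-/- marrow and 5.18, 4.56 and 5.02 in wild-type marrow. Fancc-/- replicates 1 and 2 were high, and Fancc-/- replicate 3 was level with the Fancg-/- mice. Rsad2, or viperin, read 11.60, 11.89 and 11.66 against 13.38, 13.16 and 11.42, with the same split. Irf7, the factor that amplifies the response, read 7.60, 7.64 and 7.78 against 8.89, 8.61 and 6.79, and there Fancc-/- replicate 3 was the lowest of all.

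Without Fancc-/- replicate 3, the median of the interferon list was -0.49, 16 of 26 genes lay lower in every Fancg-/- mouse against 13.0% of all genes, and 7 fell against 0.373% of all genes. The 7 were Ifit1 (-2.22, SE 0.19, adjusted p = 0.00108), Rsad2 (-1.55, SE 0.16, adjusted p = 0.00337), Irf7 (-1.07), Rtp4 (-1.59), Usp18, which removes ISG15 from proteins (-1.86), the RNA sensor Ifih1 (-1.05) and Oasl2 (-1.39). The last 5 had adjusted p values of 0.0102 to 0.0397. Irf7, Rtp4, Usp18 and Oasl2 were named after their values were seen. These 2 Fancc-/- mice are not a group of the study, and with replicate 3 included the interferon genes did not pass.

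**Figure D4:**
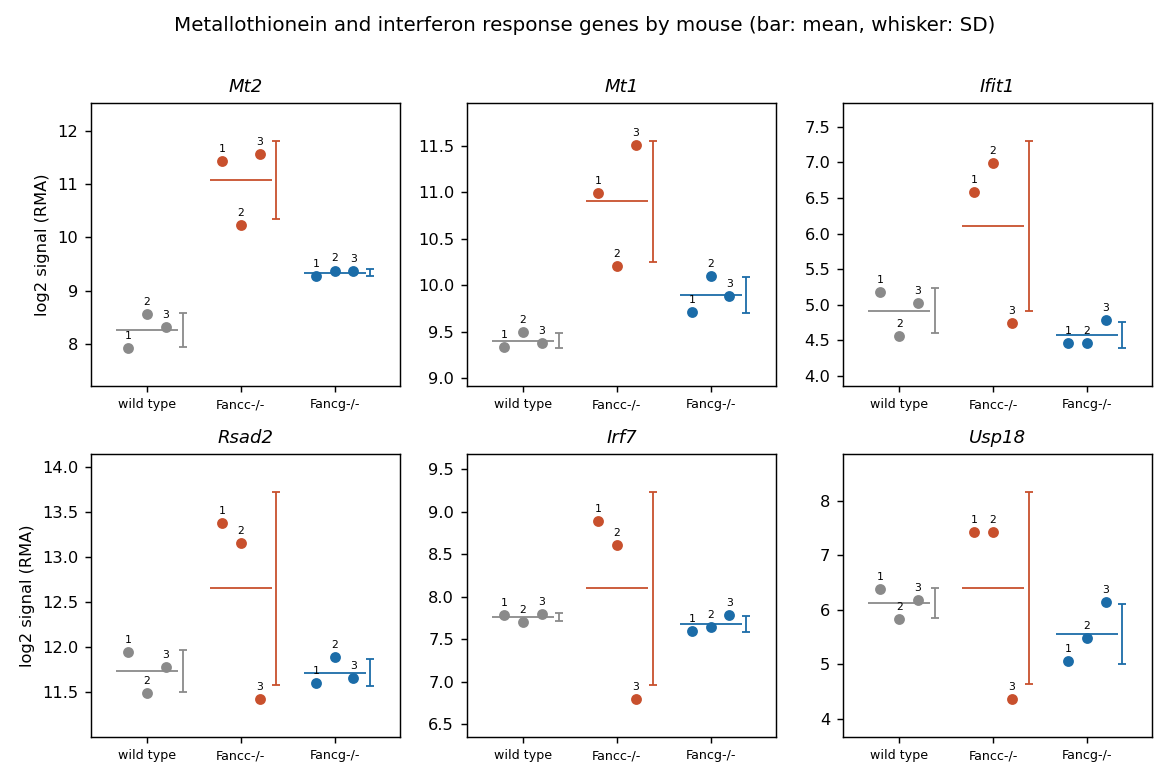
Log2 signal of Mt2 and Mt1 and of 4 interferon response genes in each mouse (points with replicate number, bars for means, whiskers for SD of 3 mice, y axes not starting at 0). Mt2 was higher in all 3 Fancc-/- mice than in the Fancg-/- mice, whereas Ifit1 was high in Fancc-/- replicates 1 and 2, at 6.59 and 6.99, and at 4.74 in replicate 3.

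Myeloid lists lay slightly higher in Fancg-/- marrow. Primary granule genes of promyelocytes had a median of 0.27 over 14 genes. Of them 6 (42.9%) were apart, all higher, against 7.09% of all genes. Prtn3, or proteinase 3, read 12.98, 12.80 and 12.85 against 12.58, 12.71 and 12.29 (0.35, SE 0.12, adjusted p = 0.434). The groups were close but did not overlap. Cathepsin G, Ctsg, gave 0.27, Ms4a3 0.27, Cst7 0.43, Hdc, which makes histamine, 0.58 and Nkg7 0.65. Mpo (0.13) and Elane (0.01), the most abundant granule enzymes of the stage, did not separate the groups. The 21 secondary granule and mature neutrophil genes had a median of 0.11. Only 1 (4.76%) was apart, the integrin Itgam (0.43), below the 7.09% of all genes. The list median was 0.21 without Fancc-/- replicate 3, with 5 of 21 apart against 13.3% of all genes. It was 0.00 without Fancc-/- replicate 1, and -0.06 with Fancg-/- replicate 2 as the only Fancg-/- mouse.

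Monocyte and macrophage genes had a median of 0.22 over 21 genes, with 4 (19.0%) apart, against 7.09% of all genes. Csf1r, the receptor for M-CSF, read 11.93, 12.03 and 11.71 against 11.53, 11.63 and 10.90 (0.54, SE 0.17, adjusted p = 0.379). Cd68 (0.53), the lysosomal protease Ctss (0.22) and Ms4a6c (0.52) were also higher in every Fancg-/- mouse. The number apart was 7 of 21 without Fancc-/- replicate 3, against 13.3% of all genes. T and NK cell genes had a median of 0.27 over 25. Of these, 6 (24.0%) were apart above, against 7.09% of all genes, and Zap70 (-0.26) below (4.00%, against 6.19%). Cd2, an adhesion receptor, read 7.75, 7.79 and 7.88 against 6.90, 7.54 and 6.04 (0.98, SE 0.29, adjusted p = 0.335), and Cd8b1 gave 0.86. The T and NK median was 0.10 without Fancc-/- replicate 3.

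Basophil, mast cell and eosinophil genes had a median of 0.76, all 15 at or above 0.07, and 3 were apart. Mcpt8, a basophil protease, read 10.65, 11.27 and 10.22 against 9.35, 10.20 and 6.94 (1.88, SE 0.65, adjusted p = 0.432). Here too Fancc-/- replicate 3 was by far the lowest. Without it the list median was 0.16, and 4 of 15 were apart, against 13.3% of all genes.

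Megakaryocyte and platelet genes had a median of -0.17 over 17. Only Treml1 (-0.40) was apart, below (5.88%, against 6.19% of all genes). The list median was -0.41 without Fancc-/- replicate 3 and 0.01 without Fancc-/- replicate 2. For the 19 stem and progenitor genes the median was 0.04. Prom1 (0.52) and Angpt1 (0.35) lay higher and Adgrg1 (-0.24) lower in every Fancg-/- mouse. These shares, 10.5% higher and 5.26% lower, compare with 7.09% and 6.19% of all genes. The stroma, bone and vessel list stood at a median of 0.30 over 17 genes, with 1 (5.88%) apart above, against 7.09% of all genes. This was Cxcl12, the chemokine that holds stem cells in the marrow. Cxcl12 read 8.95, 7.48 and 6.85 against 5.90, 6.13 and 6.07 (1.73, SE 0.70, adjusted p = 0.503). Fancg-/- replicate 1 was highest, and the list median was 0.11 without it. The mean level of these genes was 7.81, 7.07 and 6.73 in the Fancg-/- mice and 6.35, 6.86 and 7.01 in the Fancc-/- mice, so mice of the same group differed as widely as the groups did. Its part in the other results was not tested. Skeletal muscle genes had a median of 0.05 over 11.

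**Figure D5:**
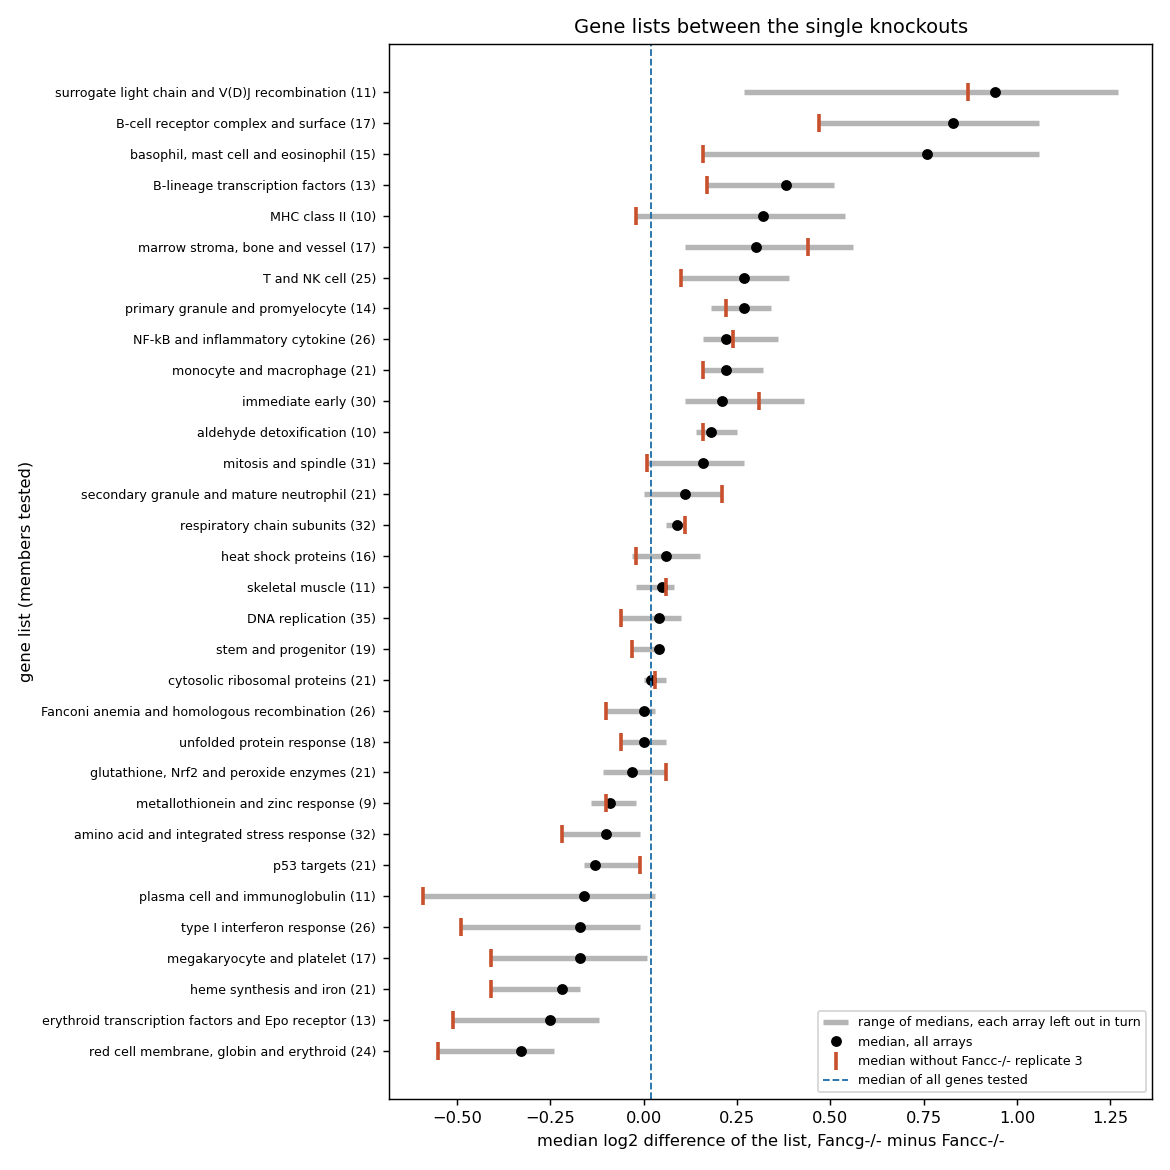
Median log2 difference, Fancg-/- minus Fancc-/-, of each of 32 gene lists (black points, number of tested members in brackets), with the range of medians when each array is left out (grey) and the median without Fancc-/- replicate 3 (red ticks). The dashed line is the median of all genes, 0.02. The early B-cell list lies highest at 0.94 and the red cell list lowest at -0.33, and without Fancc-/- replicate 3 the basophil list moves from 0.76 to 0.16 and the interferon list from -0.17 to -0.49.

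Immediate early genes, which cells switch on within minutes of a stimulus or of handling, had a median of 0.21 over 30. Rgs2 rose, and 8 (26.7%) were higher in every Fancg-/- mouse, against 7.09% of all genes. Dusp2, a phosphatase of MAP kinases, read 8.70, 9.11 and 9.11 against 8.27, 8.32 and 7.78 (0.85, SE 0.22, adjusted p = 0.298). Gadd45b read 10.04, 10.02 and 9.77 against 9.38, 9.17 and 9.03 (0.75, SE 0.16, adjusted p = 0.154). Both pairs of groups were apart. The orphan receptor Nr4a1 (0.97), Klf4 (0.74), Junb (0.52), Dusp5 (0.50) and Ier2 (0.41) were the others. Without Fancg-/- replicate 3 the median was 0.43 with 13 of 30 apart, against 10.7% of all genes. The median was 0.11 without Fancg-/- replicate 2, and 0.49 with replicate 2 as the only Fancg-/- mouse. With Eif2s3y as a covariate, a fit that leans on how the Fancg-/- libraries differ, the list median was -0.48. NF-kB and inflammatory cytokine genes had a median of 0.22 over 26, and -0.34 with that covariate. In this list 2 (7.69%) were apart, Cd40 (0.76) and Ptgs2 (0.92), near the 7.09% of all genes. Without Fancg-/- replicate 3 its median was 0.36 with 10 apart, against 10.7% of all genes, and with replicate 2 as the only Fancg-/- mouse it was 0.53.

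Among metabolic and stress lists, amino acid and integrated stress response genes had a median of -0.10 over 32. Apart were 4 below (12.5%) and 1 above (3.12%), against 6.19% and 7.09% of all genes. The median was -0.22 without Fancc-/- replicate 3, with 13 of 32 apart below against 13.0% of all genes, and -0.01 without Fancc-/- replicate 1. Asns, which makes asparagine and is a standard Atf4 target, read 9.70, 9.53 and 9.39 against 10.57, 10.24 and 9.82 (-0.67, SE 0.17, adjusted p = 0.312). The groups did not overlap, and Asns passed without Fancc-/- replicate 3 (-0.86, adjusted p = 0.0387). The amino acid transporter subunits Slc7a5 (-0.57) and Slc3a2 (-0.36) and the glutathione-degrading Chac1 (-0.57) were lower too, while the cystine carrier Slc7a11 was higher (0.89). Unfolded protein response genes had a median of -0.00 over 18, with Hspa5 (0.23) and Sdf2l1 (0.22) apart above (11.1%, against 7.09% of all genes).

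Glutathione, Nrf2 and peroxide enzymes had a median of -0.03 over 21. Apart were 4 below (19.0%) and 1 above (4.76%), against 6.19% and 7.09% of all genes. Leaving out Fancc-/- replicate 3 turned the median to 0.06, with 7 apart below and 2 above, against 13.0% and 13.3% of all genes. Nqo1, a quinone reductase induced by Nrf2, read 5.87, 5.71 and 6.21 against 6.38, 6.44 and 6.86 (-0.63, SE 0.17, adjusted p = 0.329). Gclc, the rate-limiting enzyme of glutathione synthesis, gave -0.38, catalase Cat -0.54 and peroxiredoxin Prdx2, abundant in red cells, -0.36, whereas Gstm1 gave 0.25. Aldehydes are a source of the crosslinks that the Fanconi pathway repairs. Of 10 aldehyde detoxification genes, Aldh1a1 was lower in every Fancg-/- mouse, at 9.74, 9.45 and 9.31 against 10.30, 10.48 and 10.06 (-0.78, SE 0.19, adjusted p = 0.277). Aldh16a1 (0.17) was apart in the other direction. Each was 10.0% of the list, against 6.19% below and 7.09% above over all genes. The list median was 0.18.

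Genes of the Fanconi pathway itself and of homologous recombination had a median of 0.00 over 26, with differences from -0.35 to 0.26. Blm (-0.35), Slx4 (-0.22) and Brca1 (-0.19) were lower in every Fancg-/- mouse, 11.5% of the list against 6.19% of all genes. The other probe sets of Brca1, at -0.20 to 0.24, overlapped. The list median was -0.10 without Fancc-/- replicate 3, and 7 of 26 were then apart below, against 13.0% of all genes. Without Fancg-/- replicate 3 it was -0.05 and 6 were apart below, against 11.6%. Targets of p53 had a median of -0.13 over 21. Sesn1, an antioxidant sestrin (-0.71, SE 0.20, adjusted p = 0.335), Aen (-0.42) and Polk (-0.37) were apart below. They made up 14.3% of the list, against 6.19% of all genes. Dcxr (0.49) was apart above (4.76%, against 7.09% of all genes). The other probe sets of Aen, at -0.14 to 0.02, overlapped, as did that of Polk, at -0.01. The p53 list median was -0.01 without Fancc-/- replicate 3. DNA replication genes (median 0.04 over 35, with Gins4 at 0.12 apart) and mitosis genes (median 0.16 over 31, with Racgap1 at 0.32 apart) showed 1 separated gene each. Those shares, 2.86% and 3.23%, lay below the 7.09% of all genes. The DNA replication median turned to -0.06 without Fancc-/- replicate 3, with 11 of 35 apart below, and the mitosis median was 0.01, with 4 of 31 apart below, against 13.0% of all genes. Leaving out Fancc-/- replicate 2 gave a mitosis median of 0.27. Heat shock genes had a median of 0.06 over 16 with Hspa4 (0.24) apart, and cytosolic ribosomal proteins 0.02 over 21 with Rpl12 (0.42) apart. Their shares apart above, 6.25% and 4.76%, lay below the 7.09% of all genes. The heat shock and ribosomal medians were -0.02 and 0.03 without Fancc-/- replicate 3. Then 3 heat shock and 5 ribosomal genes were apart above, against 13.3% of all genes.

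Respiratory chain subunits showed small, even differences. Their median was 0.09 over 32, and 8 (25.0%) were higher in every Fancg-/- mouse, against 7.09% of all genes. Leaving out Fancc-/- replicate 3 put 12 of 32 apart, against 13.3% of all genes. Ndufa9, a complex I subunit, read 10.13, 10.09 and 10.10 against 10.00, 9.71 and 9.63 (0.32, SE 0.12, adjusted p = 0.467), and Cox5a of complex IV gave 0.19. The groups of both were apart, although the Fancc-/- mice spread wider on Ndufa9 than the gap between the groups. The other probe sets of Cox5a, at 0.04 and 0.05, overlapped.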

How the data were processed

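RNA of unsorted marrow from 12 mice was measured on Affymetrix mouse arrays, 3 arrays per group, and 6 arrays are compared here. The deposited table holds log2 signals per probe set, which the authors made with RMA, and Partek is also named, both per the submitters' processing notes and without versions. Quantile normalization, a step of RMA, makes the arrays' distributions alike, so a change shared by most genes would not show. The number of arrays limits the precision.

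Of 45101 probe sets, 64 were controls, 34945 carried 1 gene symbol, 932 several and 9160 none. By Entrez ID, 34741 matched the RefSeq gene table (GRCm38.p6). Genes on X and Y were kept out of the comparison. A gene was tested if its brightest probe set lay above the array median (percentile 50) on at least 3 of the 12 arrays, which left 5878 dim genes untested.

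The contrast Fancg-/- minus Fancc-/- was fitted with limma 3.58.1 in R 4.3.3 over all 12 arrays (4 group means, 8 residual degrees of freedom, variance trend), with 2-sided p values adjusted by Benjamini-Hochberg over the 11523 genes. The script was tested on simulated data. Groups were called apart when the 3 arrays of one all lay above those of the other. SE is the standard error of the log2 difference.

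Named genes were those past the test, filled to 12 per direction by smallest p among genes whose groups were apart, and up to 6 members of each of the 32 lists by smallest p. Predicted genes were passed over, and list members named beyond this rule (such as Klf1, Pax5, Nfe2, Tfrc and Xbp1) were chosen after their values were seen. The members and lists were chosen with earlier results of these data known.

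The labels give the groups the same replicate numbers but no shared litter or day. Arrays of the same number deviated from their group means with correlations of -0.11, -0.07 and -0.07, so the numbers were not taken as pairs. Alternatives changed the filter, the probe set rule, the normalization, the variance model, the arrays in the fit and the covariates.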

Additional observations from a re-analysis of the deposited data

Results flagged for a closer look

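Y-linked genes lay outside the autosomal comparison and gave signal in mice labelled Fancg-/-. Eif2s3y read 7.64, 9.09 and 5.78 in Fancg-/- replicates 1, 2 and 3, above the highest Fancc-/- value of 3.30. Kdm5d, a Y-linked histone demethylase, read 4.24 and 5.22 in Fancg-/- replicates 1 and 2, above the highest Fancc-/- value of 3.38. Sex is not given in the labels, and the calls with Eif2s3y or Xist as a covariate are given with the other alternatives.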

How the results depend on the processing

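Calls were few and moved with most choices, and the cause was not tested. All 8 calls were kept with a robust variance trend, with array weights, with X and Y genes included and without Fancc-/- replicate 3. With the filter at the 75th percentile, and with a second quantile normalization, 7 were kept. Against 2 higher and 6 lower, limma gave 0 and 1 with no filter on dim genes, 1 higher with a second quantile normalization, 7 and 28 with array weights, and 10 lower with X and Y genes included. It gave 0 and 0 with the mean of a gene's probe sets, with probe sets unique to 1 gene, with arrays centred on their medians, with no variance trend, with the 6 arrays alone, with Xist or Eif2s3y as a covariate and with Fancg-/- replicate 2 as the only Fancg-/- mouse, where 355 to 1040 genes had an unadjusted p below 0.05. A lone mouse was assumed to vary like the other groups. With the replicate number as a block, 0 were higher and 3 lower, although the numbers do not pair the mice. Leaving out each array gave 0 to 8 higher and 0 to 43 lower. Groups were apart for 1237 to 1834 genes above and 941 to 1501 below with an array left out, for 1107 below with no filter and for 398 below with the filter at the 75th percentile. With Eif2s3y as a covariate the list medians were 2.94 for the surrogate light chain, 1.68 for the B-cell receptor, -0.73 for red cell and 0.43 for primary granule genes. That fit leans on how the Fancg-/- libraries differ from each other, as given above, so no reading is drawn from these medians. With Fancg-/- replicate 2 as the only Fancg-/- mouse the surrogate light chain median was 0.33. Leaving out each array, medians ran from 0.27 to 1.27 for the surrogate light chain, from -0.55 to -0.24 for red cell and from 0.18 to 0.34 for primary granule genes. Armc8 turned to 0.11 on probe sets unique to 1 gene. Over all alternatives, the 8 genes kept their call in 56 of the fits of a gene, lost it in 110 and turned in 1.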

Other observations

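X-linked genes, kept out of the comparison above, were fitted together with the autosomal genes as an alternative (11855 genes, 328 of them on X). Alas2, the erythroid enzyme that starts heme synthesis, read 12.02, 12.08 and 12.05 in Fancg-/- marrow and 13.04, 12.76 and 12.88 in Fancc-/- marrow. The groups were apart, and Alas2 fell by 0.84 (SE 0.12, limma, adjusted p = 0.0365). Bex4 read 6.46, 6.56 and 6.40 against 7.92, 7.83 and 8.16 and fell by 1.50 (SE 0.19, adjusted p = 0.0244). Gata1, the factor that drives red cell and megakaryocyte fate, read 8.71, 8.75 and 8.76 against 9.47, 9.33 and 8.96, a difference of -0.51 (adjusted p = 0.473). The sex marks moved with the groups, as given above, and X-linked values rest on the same mice.

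Genes beyond the interferon list that are known to be interferon-induced were also among the 43 that fell without Fancc-/- replicate 3. They were chosen after their values were seen. The immunity-related GTPases Igtp (-1.30, limma, adjusted p = 0.0216) and Irgm1 (-1.20, 0.0345) were lower, as were Oas3 (-1.23, 0.0105), Isg20 (-0.96, 0.0324), Ifi27 (-1.13, 0.0127), Ifi213 (-1.53, 0.0220) and Ube2l6, the E2 enzyme for ISG15 (-0.99, 0.0450). With all 6 arrays, their adjusted p values ran from 0.0981 for Ube2l6 to 0.802 for Ifi27.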
